A study of Mus musculus with 18 samples.

Results

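The change in transcript levels that came with a tumour was compared between high endothelial cells (HECs) and blood vessel endothelial cells (BECs) of mice. All 12 endothelial libraries of a series of 18 RNA-seq libraries entered the comparison, 3 in each of 4 groups. Genes with a mean value of at least 10 were kept, which left 18511 of 55401, and 18446 of these received an adjusted p. The quantity of interest was the interaction, defined as the log2 fold change with tumour in HECs minus that in BECs. A positive interaction means that the change in HECs lay above that in BECs.

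The mice were wild-type C57BL/6 females, given EO771 cells, a mouse breast cancer line, in the mammary fat pad where a tumour was present. BEC normal came from fat pads without a tumour and BEC tumour from the EO771 tumours themselves. HEC normal came from inguinal lymph nodes of mice without tumours. HEC tumour came from inguinal nodes of tumour-bearing mice, which the labels call lymph node metastases. Cells were sorted as CD45- CD31high, and HECs also for PNAd, the sugar epitope of high endothelium. The study gives the age at which mice were obtained but the age at collection and the number of animals behind each library are not given in the sources used here. BEC normal and BEC tumour came from different tissues, which were digested with different enzymes and for different times, whereas both HEC groups came from lymph nodes. In BECs, the tumour, the tissue and the digestion therefore cannot be told apart. The study describes the replicates as independent experiments, and the labels do not say whether they were separate animals, so p-values measure the spread between these samples.

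HECs line the high endothelial venules, through which lymphocytes leave the blood and enter lymph nodes. They carry sulphated sialomucins, the ligands of L-selectin, on their surface. BECs line other blood vessels, and in tumours they meet growth factors, low oxygen and altered flow. ALOX12 makes 12-HETE from arachidonic acid, CYP26B1 degrades retinoic acid, and NRP2 is a receptor for class 3 semaphorins and VEGF-C.

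Library totals ran from 56.4 to 79.4 M, and 20516 to 22818 genes had a value above 0. Low values rose in steps of between 3.6 and 3.74, so 1 unit is not 1 fragment. General endothelial markers were present in all groups, with summed levels of 2470 to 3760 CPM, which is the value scaled to a common library total. Glycam1 and Chst4, defining genes of high endothelium, were at 0 in all 6 BEC libraries. In HECs, Ccl21a and Chst2 were at 0 in all 6 libraries and Madcam1 in 5 of 6. HEC normal replicate 2 held a normalised count of 4.07 for Chst4, against 19906 and 20205 in the other HEC normal libraries, and HEC tumour replicate 3 held 14255 for Fut7, against 66477 and 65523. Myeloid markers (14 genes) summed to 115 to 137 CPM in BEC normal, 1740 to 2440 in BEC tumour, 486 to 510 in HEC normal and 357 to 375 in HEC tumour. All 14 were called higher in BEC tumour (12.5% of all genes). Cd68 made up most of the sum outside BEC tumour, and without it the other 13 genes summed to 13.2 to 20.4 CPM in BEC normal, 903 to 1530 in BEC tumour, 7.73 to 10.1 in HEC normal and 5.41 to 9.09 in HEC tumour. Fcgr1, C1qb, C1qc and Ly86 were at 0 in all HEC normal libraries. Pericyte and smooth muscle markers (10 genes) summed to 874 to 906 CPM in BEC normal, 82.0 to 126 in BEC tumour, 32.3 to 34.8 in HEC normal and 19.1 to 21.7 in HEC tumour. Epithelial markers summed to 115 CPM in BEC tumour replicate 3 and to 17.8 and 21.7 in the other BEC tumour libraries. The part of these other cells in the results was not tested. In bulk samples, fewer cells of a type and less RNA per cell cannot be told apart.

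Changes in HECs and BECs were compared gene by gene. A gene is called here if the log2 fold change exceeded 1 in size at an adjusted p below 0.05, and rose or fell describes an adjusted p under 0.05. In HECs, 848 genes were called higher (4.60% of those tested) and 595 lower (3.23%), and in BECs 2300 higher (12.5%) and 2005 lower (10.9%). By adjusted p, 17.0% of genes rose and 18.6% fell in HECs, and 26.6% rose and 27.3% fell in BECs. The interaction was called positive for 2069 genes (11.2%) and negative for 2240 (12.1%). Across the 13268 genes with a mean of at least 100, the changes in the 2 cell types shared a sign in 50.1%, with Pearson's r of -0.05 and Spearman's rho of 0.02. Genes are not independent replicates, so these are descriptions. The 2 comparisons share no library. The spread of the log2 changes over these genes was an SD of 0.67 in HECs and 1.47 in BECs.

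**Figure D1:**
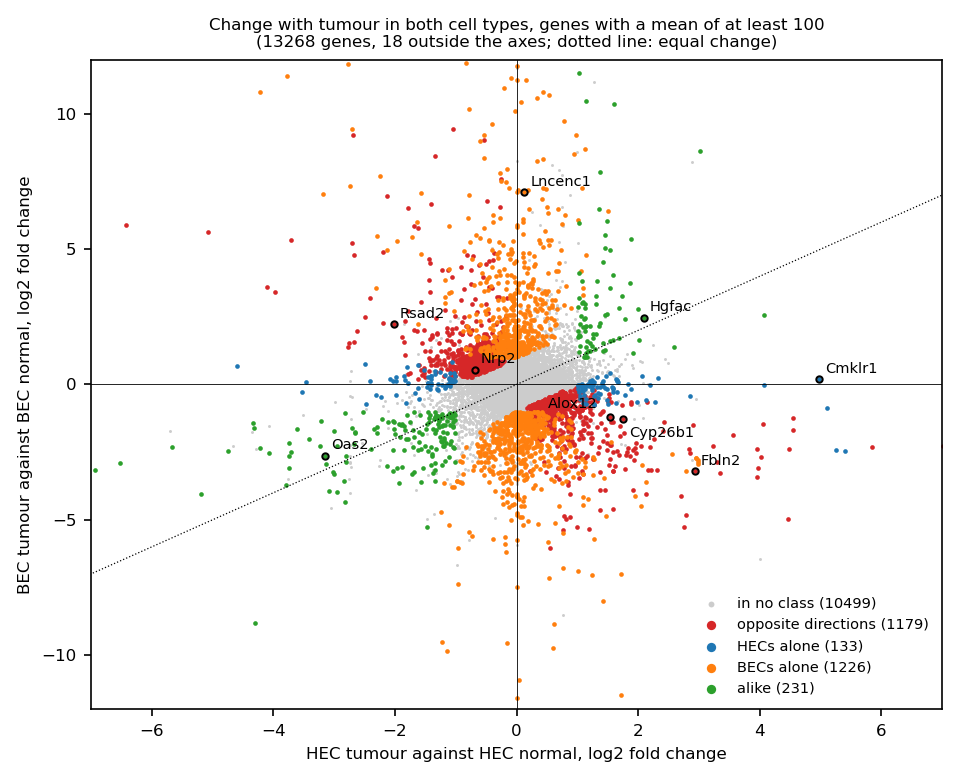
Log2 fold change with tumour in HECs (horizontal axis) and in BECs (vertical axis) for the 13268 genes with a mean normalised count of at least 100, of which 18 lie outside the axes. Points are genes, coloured by class, and the 1179 genes that moved in opposite directions fill the upper left and lower right of the plot.

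Genes fell into 4 kinds of class. Opposite genes had an adjusted p under 0.05 in both cell types, with opposite signs, and a called interaction. There were 644 that rose in HECs and fell in BECs (3.49% of genes tested) and 651 of the reverse (3.53%), together 7.02%. Of these, 184 and 102 also passed the log2 threshold in both cell types. Genes of HECs alone were called in HECs, had an adjusted p of at least 0.05 in BECs and a called interaction, and numbered 207 higher (1.12%) and 103 lower (0.558%). The matching numbers for BECs alone were 1102 higher (5.97%) and 901 lower (4.88%). Alike genes were called in both cell types in the same direction, 169 higher (0.916%) and 200 lower (1.08%). This definition asks for a log2 change over 1 in both cell types and that of the opposite genes does not, so their sizes are not directly comparable. Among genes called in both cell types, 369 moved in the same direction and 286 in opposite directions. The alike genes made up 25.6% of the HEC calls and 8.57% of the BEC calls. Another 602 genes had a called interaction but met none of these definitions. They comprise 170 that changed the same way in both cell types, 296 with an adjusted p under 0.05 in 1 cell type and 136 with one in neither. A missing call in the other cell type does not show that a gene was unchanged there. In the BECs alone classes, 62 higher and 53 lower genes were at or under a normalised count of 3 in both HEC groups, where no change could be measured.

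Typical levels differed between the classes. The genes higher in BECs alone had a median normalised count of 19.6 in BEC normal and 196 in BEC tumour, beside 121 in HEC normal and 112 in HEC tumour. Those lower in BECs alone had a median of 604 in BEC normal and 93.9 in BEC tumour, beside 66.3 in HEC normal and 79.3 in HEC tumour. In both classes, the BEC tumour level thus lay nearer to the HEC levels than the BEC normal level did. The class was chosen on the BEC change, so this is a description of levels. Among the opposite genes, medians of the log2 change were 0.78 in HECs and -1.03 in BECs for those that rose in HECs, and -0.66 and 0.92 for the others.

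Alox12, Cyp26b1 and Nrp2 each moved one way in HECs and the other way in BECs. Alox12 (ENSMUSG00000000320, GRCm38 chromosome 11, 70241457 to 70255353, minus strand) had normalised counts of 24203, 25145 and 25353 in HEC normal and 73831, 71030 and 72131 in HEC tumour. In BECs it had 83.8, 65.9 and 72.1 in BEC normal and 10.2, 44.0 and 42.7 in BEC tumour. The tumour and normal libraries did not overlap in either cell type, and every HEC library lay far above every BEC library. The log2 change was 1.54 ± 0.16 (SE) in HECs and -1.19 ± 0.23 in BECs. The interaction was 2.72 ± 0.28, with an adjusted p of 1.46e-21 by DESeq2. This p and SE depended on the fit. The adjusted p was 2.47e-07 by DESeq2 with TMM scaling (SE 0.49), 6.38e-05 with a separate DESeq2 fit for each cell type (SE 0.62) and 0.000229 by edgeR. The BEC side of Alox12 rests on low values, and without BEC tumour replicate 1, the lowest library, the interaction was 2.32.

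Cyp26b1 (ENSMUSG00000063415, chromosome 6, 84571414 to 84593908, minus strand) stood at 2082, 1997 and 2102 in HEC normal and 7015, 6945 and 6881 in HEC tumour. In BECs, its normalised counts were 405, 319 and 350 in BEC normal and 166, 157 and 128 in BEC tumour. The groups again did not overlap. Its log2 change was 1.75 ± 0.09 in HECs and -1.26 ± 0.12 in BECs, an interaction of 3.01 ± 0.15 with an adjusted p of 3.61e-88.

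Nrp2 (ENSMUSG00000025969, chromosome 1, 62703285 to 62818695, plus strand) moved the other way. It had normalised counts of 14821, 13871 and 13786 in HEC normal and 8881, 8501 and 8979 in HEC tumour. The BEC libraries held 12701, 11330 and 11724 in BEC normal and 18429, 18019 and 15989 in BEC tumour. All 3 tumour libraries lay below the normal ones in HECs and above them in BECs. Its log2 change was -0.69 ± 0.07 in HECs and 0.55 ± 0.07 in BECs, an interaction of -1.24 ± 0.10 with an adjusted p of 3.50e-32. Tested against a log2 difference of 1 in place of 0, the Nrp2 interaction had an adjusted p of 0.161. A two-sided permutation test over 400 relabellings within cell types gave p = 0.005 for each of the 3 genes, also after adjustment over the 3. This is the smallest value the test allows. Relabelling assumes no change with tumour in either cell type, so it does not test the interaction alone. Any gene whose groups part fully in opposite directions reaches this value, so it adds nothing to the lack of overlap given above. The 3 genes were chosen with earlier results of these data known, so their p-values are descriptions and not independent support.

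**Figure D2:**
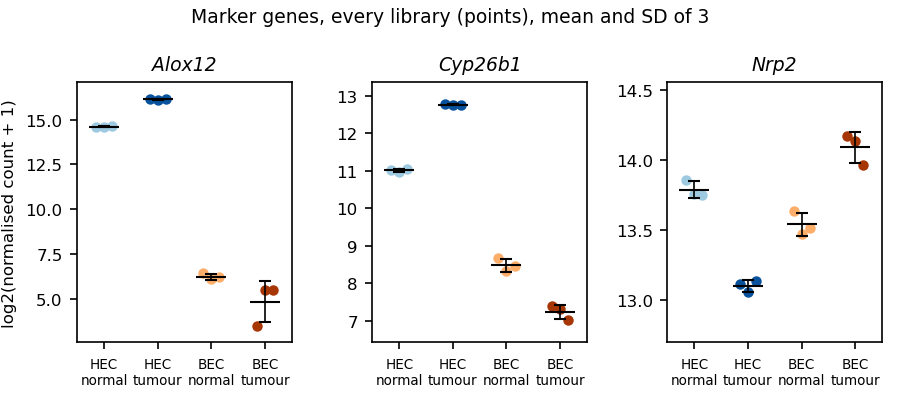
Expression of Alox12, Cyp26b1 and Nrp2 in each of the 12 libraries (points), on a scale of log2(normalised count + 1), with the mean and SD of the 3 libraries of each group. Alox12 and Cyp26b1 are higher in HEC tumour and lower in BEC tumour than in the matching normal group, and Nrp2 is the reverse.

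The genes that rose in HECs and fell in BECs with the largest test statistics in both were Fbln2, Acsbg1, Rflnb, Adam12 and Plpp3. Fbln2 encodes fibulin-2, a matrix glycoprotein, and had normalised counts of 160, 151 and 100 in HEC normal and 1167, 1042 and 928 in HEC tumour. In BECs it had 58511, 63081 and 63487 in BEC normal and 6022, 7315 and 6602 in BEC tumour. Its groups did not overlap in either cell type, and even after the fall every BEC library held more than any HEC library. The interaction of Fbln2 was 6.15 ± 0.20. Rflnb, a refilin that regulates filamin, had 2198, 2012 and 2181 in HEC normal, 6121, 5840 and 6332 in HEC tumour, 13239, 14365 and 13636 in BEC normal and 1575, 1740 and 1918 in BEC tumour. The order of the cell types for Rflnb thus turned over, from BECs above HECs without a tumour to HECs above BECs with one. Acsbg1, an acyl-CoA synthetase, had an interaction of 4.31 ± 0.14, the metalloprotease gene Adam12 one of 4.26 ± 0.17, and Plpp3, which degrades lysophosphatidic acid, one of 2.56 ± 0.10. The 12 libraries of Plpp3 ran from 3178 to 3654 in HEC normal and 7389 to 7788 in HEC tumour, and from 7853 to 8165 in BEC normal and 2880 to 3245 in BEC tumour. Of the 644 genes in this class, 574 had no overlap between tumour and normal libraries in either cell type. The class was chosen on an adjusted p in both cell types, so this describes the selection and adds no support. The share over all genes was not computed.

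Rsad2, Plxnb2, Sft2d2, Xdh and Kif2c led the genes that fell in HECs and rose in BECs. Rsad2 encodes viperin, an antiviral protein induced by interferon. It had normalised counts of 69058, 64453 and 69575 in HEC normal and 16941, 16421 and 16614 in HEC tumour. In BECs it had 4041, 3615 and 3915 in BEC normal and 19661, 17134 and 17808 in BEC tumour. All BEC tumour libraries therefore lay above all HEC tumour libraries, while in the normal state the order was the reverse. The log2 change of Rsad2 was -2.02 ± 0.07 in HECs and 2.24 ± 0.07 in BECs. Xdh, which makes uric acid, had 18551, 17856 and 17333 in HEC normal, 8282, 7956 and 8523 in HEC tumour, 5694, 6074 and 6544 in BEC normal and 22013, 22052 and 20732 in BEC tumour. Its levels fell in HECs and rose in BECs with no overlap. The semaphorin receptor gene Plxnb2 had an interaction of -1.75 ± 0.06, the vesicle transport gene Sft2d2 one of -1.55 ± 0.06 and Kif2c, a kinesin of the mitotic spindle, one of -1.75 ± 0.06. In this class, 617 of 651 genes had no overlap in either cell type, which again describes genes chosen on their changes in both. The share over all genes was not computed for this class either.

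Among genes of HECs alone, predicted genes left out, 26 higher and 34 lower ones had a mean of at least 100 and no exon shared with another gene. Cmklr1, the chemerin receptor, had normalised counts of 19.3, 14.2 and 28.7 in HEC normal and 728, 524 and 725 in HEC tumour. In BECs it had 243, 272 and 271 in BEC normal and 346, 310 and 238 in BEC tumour, where the groups overlapped (adjusted p = 0.519 by DESeq2). Its interaction was 4.80 ± 0.37. The pseudouridine synthase gene Trub1, Inka2, a PAK4 inhibitor, and Dock8, an activator of CDC42, were higher in HEC tumour by log2 1.19 ± 0.09, 1.07 ± 0.09 and 1.59 ± 0.15. On the lower side, Ncaph, a condensin subunit, had 8622, 8163 and 8925 in HEC normal and 4077, 4076 and 3958 in HEC tumour. The BEC libraries of Ncaph all lay between 7867 and 8301. Mpp2, a membrane scaffold, fell by 1.99 ± 0.12 on the log2 scale in HECs, the RAB regulator Sgsm2 by 1.10 ± 0.08 and the cytoskeletal gene Specc1 by 1.03 ± 0.09. Of the 23 alternative settings, Specc1 met the definition of its class in 17 and Inka2 and Sgsm2 in 20 each.

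In BECs alone, the non-coding RNA gene Lncenc1 rose from a mean normalised count of 84.3 ± 7.19 (SD, n = 3) to 11703, 11060 and 12326. Its HEC libraries ran from 12951 to 15087 in both groups. Ctps, the enzyme that makes CTP, had 11368, 12011 and 12291 in BEC normal, 42846, 42280 and 45453 in BEC tumour, and 40133 to 41839 in HECs. For both genes, BEC tumour reached a level near that of HECs. Sdcbp2, encoding syntenin-2, and the fatty acid transporter gene Slc27a1 rose by log2 3.29 ± 0.08 and 1.79 ± 0.05. The neuronal pentraxin gene Nptx1 fell from 30278, 29904 and 29689 to 5398, 5573 and 5043 in BECs, with 18357 to 19696 in HECs. Podxl, a sialomucin of the endothelial surface, had 21245, 20404 and 21333 in BEC normal, 8752, 8604 and 8369 in BEC tumour and 10557 to 11090 in HECs. The CDC42 effector gene Cdc42ep2 and Hspa12b, an HSP70-like gene of endothelium, fell by 3.12 ± 0.09 and 3.53 ± 0.11 on the log2 scale.

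Alike genes included Hgfac, the activator of hepatocyte growth factor. Its normalised counts were 55.8, 97.7 and 65.0 in HEC normal and 323, 269 and 338 in HEC tumour. They were 30.0, 21.2 and 31.5 in BEC normal and 182, 157 and 123 in BEC tumour. Hgfac thus rose without overlap in both, by log2 2.09 ± 0.29 and 2.47 ± 0.32, and its interaction of -0.38 ± 0.43 was not called. The glutathione transferase gene Gsta1 rose by 1.31 ± 0.13 in HECs and 2.97 ± 0.19 in BECs, and its interaction was called, at -1.67 ± 0.23. Gsta1 and its paralogue Gsta2 are near-identical, so their values are uncertain. Among alike lower genes, Axl, the receptor for GAS6, had 5244, 5666 and 5244 in HEC normal, 1289, 1315 and 1319 in HEC tumour, 46747, 48793 and 50734 in BEC normal and 7679, 10164 and 9145 in BEC tumour. Axl fell by 2.04 ± 0.10 and 2.44 ± 0.10 on the log2 scale. The collagen gene Col8a1 fell by 2.68 ± 0.13 and 2.19 ± 0.11. Oas2 and Oas3, synthetases of the antiviral messenger 2-5A, were the other 2 leading genes. Of the 369 alike genes, the interaction was also called for 61 of those higher and 38 of those lower.

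**Figure D3:**
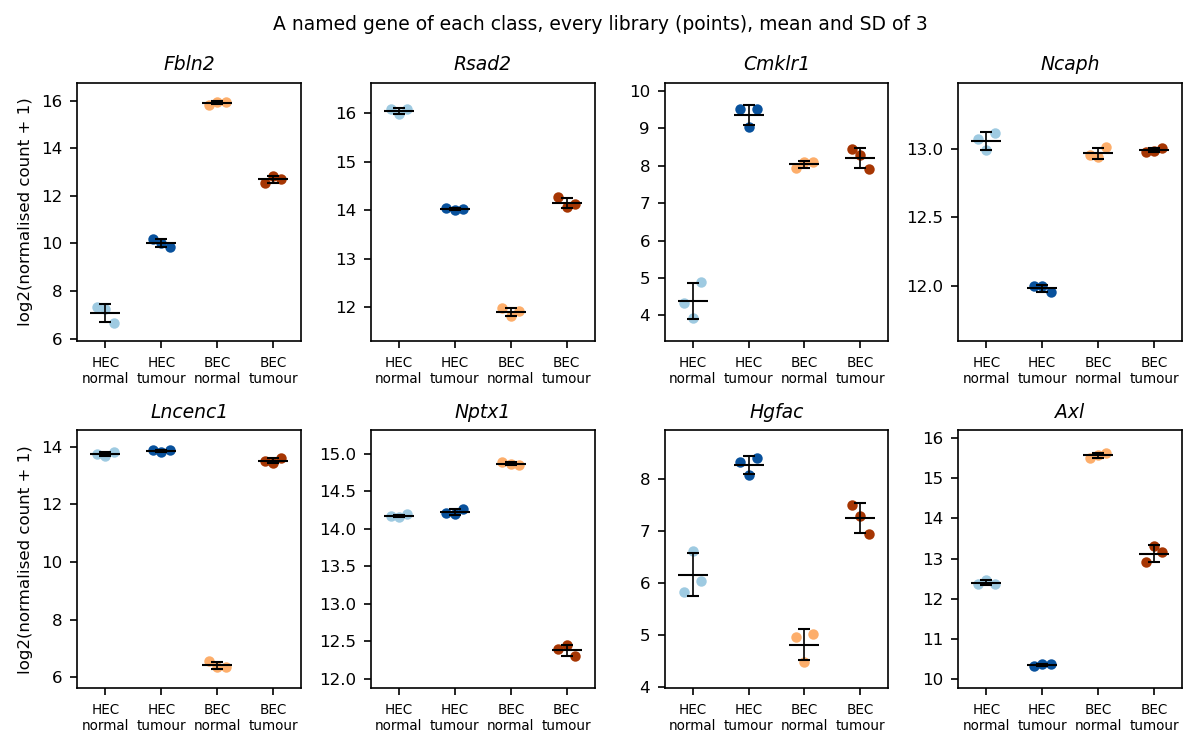
A named gene of each of the 8 classes in all 12 libraries (points), on a scale of log2(normalised count + 1), with the mean and SD of 3 libraries per group. Fbln2 and Rsad2 move in opposite directions, Cmklr1 and Ncaph move in HECs, Lncenc1 and Nptx1 move in BECs, and Hgfac and Axl move the same way in both.

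Interferon-stimulated genes were mostly lower with tumour in both cell types. Of 59 tested, 38 were called lower in HECs and 31 lower in BECs, against 3.23% and 10.9% of all genes, with median log2 changes of -1.22 and -1.04. Over all genes the medians were 0.02 and 0.01. In all, 24 of the 59 were alike lower (1.08% of all genes tested) and 5 were opposite with HECs lower (3.53%). Isg15, a ubiquitin-like modifier, had normalised counts of 17169, 15532 and 16987 in HEC normal, 4164, 4477 and 4486 in HEC tumour, 19815, 25308 and 23421 in BEC normal and 4916, 5668 and 7101 in BEC tumour. The log2 change of Isg15 was -1.92 ± 0.13 in HECs and -1.95 ± 0.13 in BECs, and its interaction of 0.03 ± 0.19 had an adjusted p of 0.904. Oas2 fell from 5409, 4910 and 5028 to 563, 544 and 610 in HECs and from 1864, 2577 and 2047 to 302, 371 and 377 in BECs. Oas3 fell by 3.00 ± 0.10 on the log2 scale in HECs and by 1.73 ± 0.10 in BECs, with an interaction of -1.27 ± 0.14. Mx1, an antiviral GTPase, fell by 3.24 and 2.28, and Usp18, which removes ISG15, by 2.39 and 2.37.

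A smaller set of interferon-stimulated genes parted. The 5 opposite members were Rsad2, Ifit1, Ifit2, Trim25 and Herc6, all lower in HEC tumour and higher in BEC tumour. Ifit2, an RNA-binding antiviral gene, had 14151, 12242 and 13196 in HEC normal, 5169, 4772 and 5157 in HEC tumour, 2072, 1702 and 1810 in BEC normal and 6556, 5885 and 6331 in BEC tumour. Its groups did not overlap, and its interaction was -3.14 ± 0.13. Ifit1 changed by log2 -1.32 ± 0.08 and 0.45 ± 0.08. Ifit3 and Ifit3b, which are close copies and therefore uncertain, fell in both but more in HECs, with interactions of -2.34 ± 0.09 and -1.79 ± 0.09. Over the whole list the interaction was called negative for 14 members and positive for 3 (12.1% and 11.2% of all genes), and its median was -0.36.

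The ISRE, the sequence bound by interferon-activated factors, has a core of TTTC, any 2 bases and TTTC. The core was searched on both strands in RefSeq promoter windows of 300 bases (250 before and 50 after the start site, GRCm38.p6), which were found for 11950 of 18497 gene symbols. Any hit counted, overlapping ones included. It stood in a window of 3.81% of all these genes, 53.3% of 45 interferon-stimulated genes and all 10 guanylate-binding or immunity-related GTPase genes with a window. Among the alike lower genes it was found in 14.3%, among those lower in HECs alone in 12.3%, and among opposite genes in 3.84% of those that rose in HECs and 4.23% of those that fell. Both alike and opposite interferon-stimulated genes carried it, in 5 of 14 and 2 of 5 genes with a window. Sites of alike genes (Isg15 at chr4:156200870-156200889, Oas3 at chr5:120777720-120777739, Oas1a at chr5:120907531-120907550, all minus strand) and of opposite genes (Rsad2 at chr12:26456558-26456577, minus strand, and Ifit1 at chr19:34640799-34640818, plus strand) are printed because the core was found in both kinds. They read 5′ to 3′ on the strand of the gene, with the core in capitals.
Isg15: aaaccGAAACAGAAAatagc
Oas3: gaggaGAAAACGAAAgtgaa
Oas1a: ctcggGAAATGGAAActgaa
Rsad2: ccaacTTTCATTTTCagaaa
Ifit1: ctcagTTTCAGTTTCtcact
A match is a description of letters and not of binding.

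Guanylate-binding proteins and immunity-related GTPases, which are induced by interferon-gamma, were in part alike. Of 17 tested, 11 were called lower in HECs and 9 in BECs (3.23% and 10.9% of all genes), and 6 were alike lower (1.08%). The interaction was called positive for 2 and negative for 5 (11.2% and 12.1% of all genes). Gbp5 was opposite, with 1708, 1445 and 1552 in HEC normal, 192, 244 and 300 in HEC tumour, 662, 650 and 807 in BEC normal and 2317, 1967 and 1949 in BEC tumour. Its interaction was -4.23 ± 0.23. Of 20 genes for MHC class I presentation, 15 fell in HECs and 13 in BECs by adjusted p (18.6% and 27.3% of all genes). Only 2 and 6 were called lower (3.23% and 10.9% of all genes), and the median changes were -0.51 and -0.43. MHC class II genes were higher in BECs alone for 5 of 8 (5.97% of all genes). Among them was H2-Aa, with values up to 28.7 in HECs and BEC normal and of 421, 318 and 380 in BEC tumour. The class II genes moved with the myeloid markers, for which the summed CPM are given above.

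**Figure D4:**
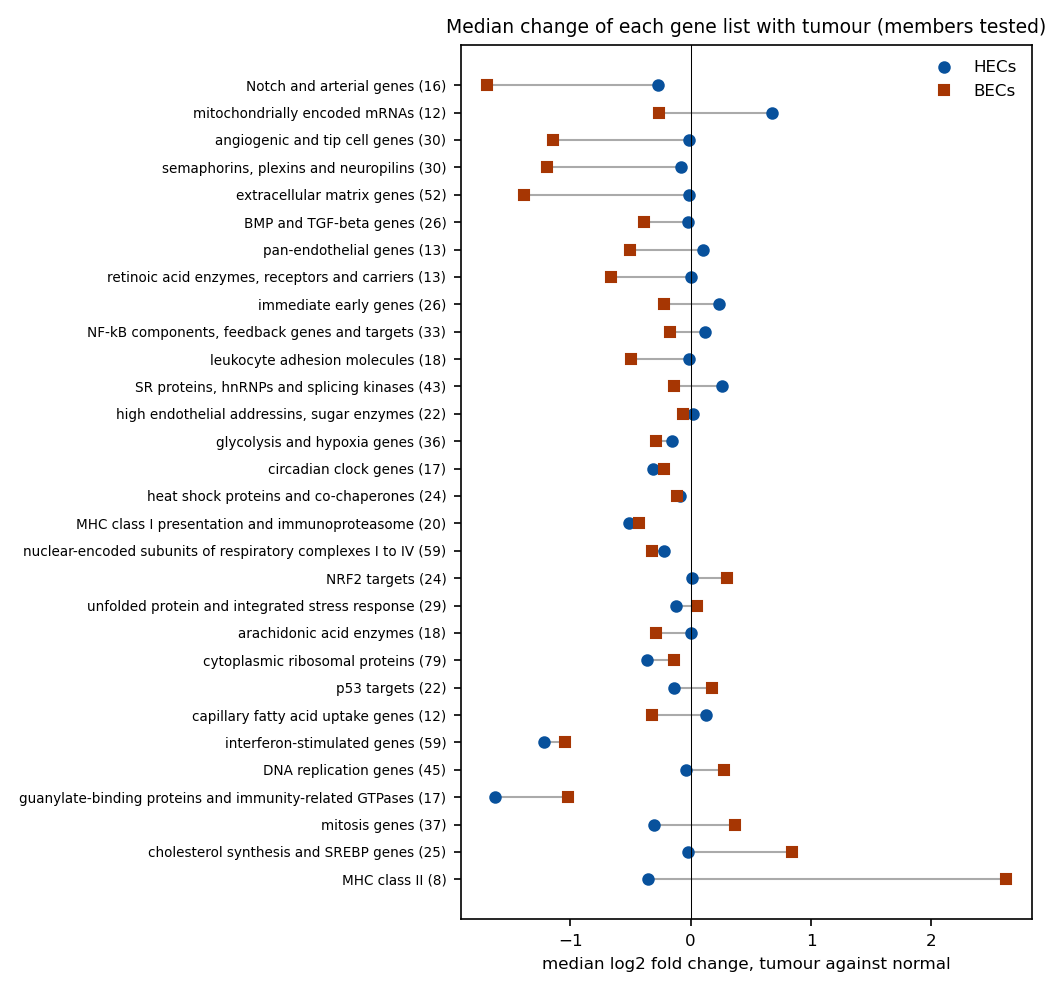
Median log2 fold change with tumour in HECs (circles) and BECs (squares) for 30 gene lists, with the number of members tested in brackets, ordered by the median interaction. Interferon-stimulated genes lie at -1.22 and -1.04, while mitosis genes lie at -0.30 in HECs and 0.37 in BECs.

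Cell division genes moved apart. Of 37 mitosis genes, 20 fell and 1 rose in HECs by adjusted p, and 25 rose and 5 fell in BECs. Over all genes, 18.6% fell and 17.0% rose in HECs, and 26.6% rose and 27.3% fell in BECs. Few mitosis genes passed the log2 threshold, with 0 called in HECs and 7 called higher in BECs (12.5% of all genes). The interaction was called negative for 11 and positive for 0 (12.1% and 11.2% of all genes). Kif2c had normalised counts of 11944, 12212 and 12352 in HEC normal, 7846, 7713 and 7578 in HEC tumour, 7588, 7729 and 8176 in BEC normal and 16738, 16551 and 16738 in BEC tumour. Bub1b, a spindle checkpoint kinase, had 9360, 9905 and 9974 in HEC normal, 5570, 5583 and 5716 in HEC tumour, 8901, 9008 and 8745 in BEC normal and 11699, 11373 and 11276 in BEC tumour. Both separated fully in both cell types. Cdc20 and Plk1, drivers of anaphase and mitosis, had interactions of -1.68 ± 0.10 and -1.37 ± 0.09. Mki67, a proliferation marker, was less regular, with 9410, 4015 and 5137 in BEC normal and 22384, 18313 and 8112 in BEC tumour, which overlap. Of 45 DNA replication genes, the interaction was called negative for 7 and positive for 1, a negative share near the 12.1% of all genes. By adjusted p alone it was negative for 26 and positive for 8, against 4397 and 4246 of all 18446 genes. By the same measure 11 rose and 13 fell in HECs, and 23 rose and 7 fell in BECs. Opposite with HECs lower were 6 (3.53% of all genes). The leading genes were the DNA polymerase subunit gene Pold1 at -1.52 ± 0.08 and Uhrf1, which maintains DNA methylation, at -1.09 ± 0.06.

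Cholesterol synthesis genes rose in BECs and divided in HECs. Of 25, 21 rose and 0 fell in BECs by adjusted p (26.6% and 27.3% of all genes), whereas 6 rose and 5 fell in HECs (17.0% and 18.6%), with medians of 0.84 and -0.02. Library-total scaling turned the HEC median to 0.05. Insig1, a regulator of sterol sensing, had 1255, 1251 and 1194 in HEC normal, 1560, 1649 and 1575 in HEC tumour, 2310, 2402 and 2329 in BEC normal and 7393, 7478 and 6969 in BEC tumour. Insig1 thus rose in both without overlap, and its interaction was -1.26 ± 0.08. Fdft1 and Mvd, enzymes of the pathway, fell in HECs (log2 -0.93 and -0.72) and rose in BECs (0.95 and 0.71). The interaction was called negative for 10 of the 25 and positive for 1 (12.1% and 11.2% of all genes).

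Genes of the splicing machinery leaned the other way. Of 43 SR proteins, hnRNPs and splicing kinases, 20 rose and 6 fell in HECs by adjusted p (17.0% and 18.6% of all genes), and 7 rose and 22 fell in BECs (26.6% and 27.3%). The interaction was called positive for 9 and negative for 3 (11.2% and 12.1% of all genes), and 8 were opposite with HECs higher (3.49%). Srsf6, an SR protein, had 7340, 7882 and 7554 in HEC normal, 19239, 18730 and 19143 in HEC tumour, 18220, 17549 and 17888 in BEC normal and 11391, 11449 and 12528 in BEC tumour. Its order in the 2 cell types turned over, and its interaction was 1.93 ± 0.07. Srsf2 and Srsf7, also SR proteins, had interactions of 1.87 ± 0.10 and 1.12 ± 0.07. The splicing kinases Clk3 and Srpk2 moved against them, at -1.14 and -1.66. Cytoplasmic ribosomal protein genes shifted by little, with medians of -0.36 in HECs and -0.14 in BECs, and 0 of 79 was called in either cell type by DESeq2, although 70 fell in HECs and 36 in BECs by adjusted p (18.6% and 27.3% of all genes).

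Targets and regulators of BMP and TGF-beta signalling were opposite in 6 of 26, all higher in HECs and lower in BECs (3.49% of all genes). Id3, an inhibitor of helix-loop-helix factors and a BMP target, had normalised counts of 1520, 2142 and 1939 in HEC normal and 7051, 7341 and 7575 in HEC tumour. In BECs it had 9601, 10672 and 10586 in BEC normal and 1499, 1997 and 1818 in BEC tumour, so the cell types exchanged levels. The interaction of Id3 was 4.51 ± 0.19, beside 1.97 ± 0.10 for Id1, and Id2 changed by log2 1.88 ± 0.12 in HECs and -0.72 ± 0.12 in BECs. The inhibitory gene Smad6 and Smad9 had interactions of 3.07 ± 0.20 and 3.65 ± 0.38. Among ligands and receptors, Bmp4 was higher in BECs alone, and Tgfb3 and the receptor gene Acvrl1 were lower in BECs alone.

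Notch and arterial genes were mostly lower in BEC tumour, with 10 of 16 called lower and 2 higher (10.9% and 12.5% of all genes) and a median of -1.69. In HECs, 1 was called lower and 1 higher (3.23% and 4.60% of all genes), with a median of -0.27. The ligand gene Jag1 was opposite, with 2879, 2189 and 2677 in HEC normal, 5049, 4741 and 5078 in HEC tumour, 10196, 8967 and 9372 in BEC normal and 4550, 4171 and 4340 in BEC tumour. Hes1, a target of the pathway, had an interaction of 3.09 ± 0.20. The receptor gene Notch4 stood at 10074, 10579 and 10251 in BEC normal and 3055, 3273 and 2972 in BEC tumour, and its HEC groups overlapped between 5389 and 6342. Rbpj, the DNA-binding partner of the receptors, was opposite in the other direction, at log2 -0.51 in HECs and 1.00 in BECs.

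Immediate early and NF-kB target genes held members of both opposite classes. Fosl2, an AP-1 subunit, had 31366, 30053 and 29922 in HEC normal, 21599, 21349 and 22520 in HEC tumour, 5417, 5521 and 5320 in BEC normal and 16818, 16328 and 16076 in BEC tumour. Egr1 and Ccn2 moved the other way, with interactions of 2.23 ± 0.18 and 4.10 ± 0.15. Among 33 NF-kB genes, the interaction was called positive for 8 and negative for 2 (11.2% and 12.1% of all genes). Csf3, encoding the growth factor G-CSF, had 524, 350 and 408 in HEC normal, 3232, 3379 and 3042 in HEC tumour, 641, 708 and 776 in BEC normal and 253, 212 and 284 in BEC tumour. The chemokine genes Cxcl1 and Ccl7, Ptgs2 and the feedback inhibitor Tnfaip3 were also higher in HEC tumour and lower in BEC tumour. The pathway's own subunit Nfkb2 was the reverse, at -1.18 ± 0.08, and Rela was not called in any comparison, with an interaction of -0.19.

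**Figure D5:**
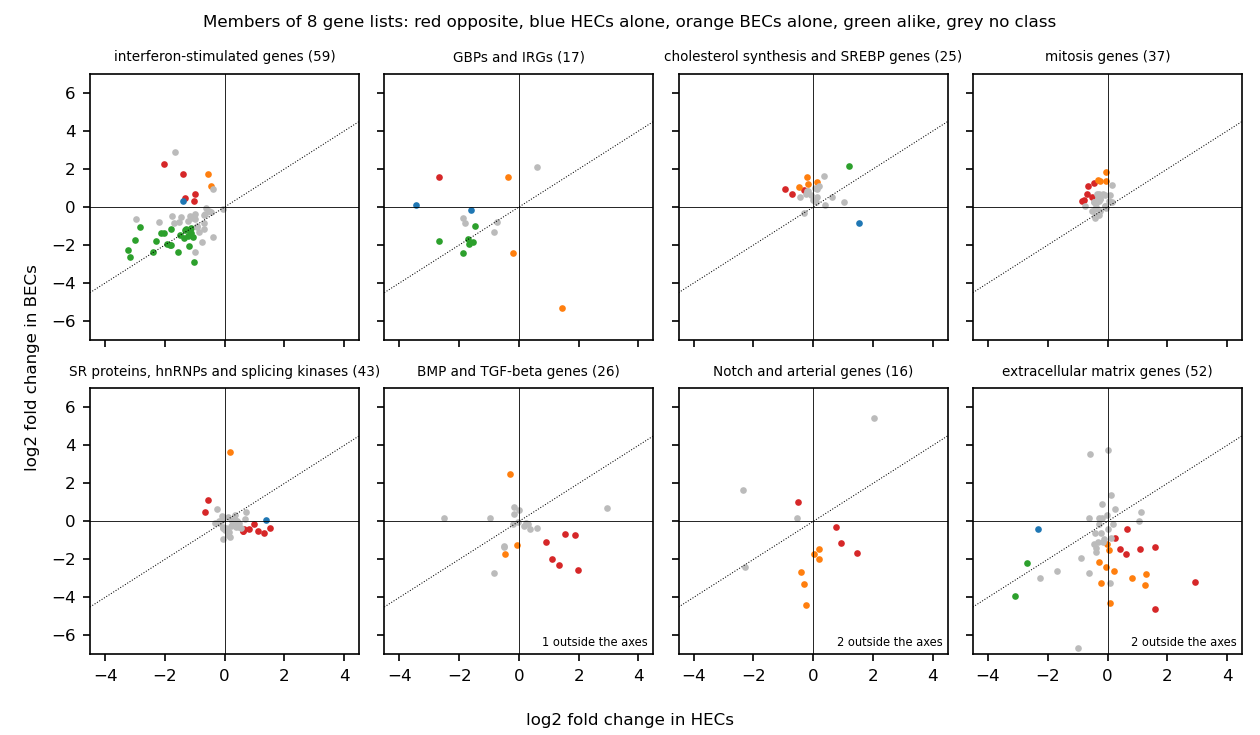
Log2 fold change with tumour in HECs (horizontal axes) and BECs (vertical axes) for every tested member of 8 gene lists, with list sizes in brackets, the dotted line marking equal change and colours marking the class. Interferon-stimulated genes lie mostly in the lower left of their panel, mitosis genes in the upper left, and BMP and Notch genes mostly below the horizontal line.

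Angiogenic, semaphorin and matrix genes mostly fell in BECs. The numbers called lower in BECs were 16 of 30 angiogenic and tip cell genes, 16 of 30 semaphorins, plexins and neuropilins, and 29 of 52 extracellular matrix genes (10.9% of all genes). Called higher in BECs were 3, 2 and 3 (12.5% of all genes). In HECs, 2, 2 and 3 were called lower (3.23% of all genes) and 0, 2 and 6 higher (4.60%). Kdr, the main VEGF receptor, had normalised counts of 5174, 5594 and 5207 in HEC normal and 8810, 9271 and 8835 in HEC tumour. In BECs it had 26024, 22554 and 24696 in BEC normal and 5138, 4903 and 4486 in BEC tumour. Kdr thus ended lower in BEC tumour than in HEC tumour, with an interaction of 3.09 ± 0.11. Angpt2, an antagonist of TIE2, was opposite in the other direction, at -1.92 ± 0.11. Vegfa was lower in BECs alone, at 3407, 3503 and 3504 in BEC normal and 1020, 1017 and 1108 in BEC tumour, with 2630 to 3001 in HECs. Claudin gene Cldn5 fell from 15828, 19545 and 17939 in BEC normal to 17.6, 37.2 and 16.6 in BEC tumour, and stood at 13.8 to 137 in HECs. Pecam1 and Cdh5 had BEC changes of log2 -0.50 and -0.05.

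Of the semaphorin family, Sema3f had 3841, 3827 and 3621 in HEC normal, 7224, 5662 and 6527 in HEC tumour, 16660, 17882 and 15432 in BEC normal and 2053, 1909 and 1943 in BEC tumour, an interaction of 3.86 ± 0.14. The receptor genes Plxnd1 and Plxna2 were also higher in HEC tumour and lower in BEC tumour, at 1.67 ± 0.07 and 1.64 ± 0.13, whereas Nrp2, Plxnb2 and the PLXNB ligand gene Sema4d moved the other way. Sema3c rose in both, by log2 0.64 and 0.55, with an interaction of 0.09 ± 0.27. In the matrix list, Timp3, an inhibitor of metalloproteases, had an interaction of 2.34 ± 0.10. Col18a1, a basement membrane collagen gene, stood at 35925, 37164 and 36785 in BEC normal and 1514, 2275 and 1822 in BEC tumour. It ran from 123 to 227 in HECs. Of 8 pericyte and smooth muscle markers tested, 5 were called lower and 0 higher in the same BEC comparison (10.9% and 12.5% of all genes). Of 9 fibroblast markers tested, 4 were called lower and 3 higher (10.9% and 12.5% of all genes), with a median of 0.04. Col1a1 and Col3a1 were among the lower and Dcn, Dpt and Pi16 were the higher. As a sum, fibroblast markers (10 genes) came to 218 to 227 CPM in BEC normal and 26.5 to 59.2 in BEC tumour, and to 19.1 to 21.0 in HEC normal and 10.6 to 12.4 in HEC tumour.

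The arachidonic acid and retinoic acid pathways around Alox12 and Cyp26b1 did not move as blocks. Of 18 arachidonic acid enzymes, 3 were opposite with HECs higher (3.49% of all genes), namely Alox12 and the cyclooxygenase genes Ptgs1 and Ptgs2. Ptgs2 had 3422, 2880 and 3559 in HEC normal, 8207, 7622 and 8098 in HEC tumour, 3357, 2199 and 2660 in BEC normal and 2005, 2012 and 1731 in BEC tumour. Ltc4s, the leukotriene C4 synthase gene, fell in BECs alone from 4146, 5804 and 5415 to 23.2, 55.8 and 27.9. Hpgd, which inactivates prostaglandins, was at 0 in all BEC normal libraries and at 1528, 1279 and 624 in BEC tumour, at least 381-fold higher against a floor of 3. The other lipoxygenase genes tested, Alox5, Alox8 and Aloxe3, were not called in the interaction, and the first 2 held values of 97.4 or less. Of 13 retinoic acid genes, Cyp26b1 was the 1 opposite member (7.02% of all genes). The receptor genes Rarg and Rara fell in BECs by 1.19 and 0.66 on the log2 scale. Aldh1a1, a retinoic acid synthase, was higher in BECs alone, at 49.4, 32.9 and 53.8 against 236, 261 and 202.

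Adhesion molecules and the enzymes of the L-selectin ligands differed gene by gene. P-selectin, Selp, was opposite, with 9934, 10291 and 9608 in HEC normal, 16148, 15565 and 15817 in HEC tumour, 24654, 24862 and 25203 in BEC normal and 18304, 17591 and 17361 in BEC tumour. Icam1 rose in both, by log2 0.96 in HECs and 2.03 in BECs. The junction gene F11r was opposite the other way, at -1.25 ± 0.09. Among genes for the ligands, the scaffold Cd34 and the glycosyltransferase gene B3gnt3 fell in HECs and rose in BECs, at -1.08 ± 0.08 and -1.20 ± 0.11. Spns2, the exporter of sphingosine-1-phosphate, was the reverse, at 2.86 ± 0.15. Glycam1 had 40089, 39129 and 40336 in HEC normal and 70900, 71579 and 69695 in HEC tumour. With 0 in every BEC library, it allows no comparison between the cell types.

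Overlapping exons make some of these values uncertain, since strand-specific counting is not stated in the sources used here. This holds for Srsf2, Nfkb2, Cdc20, Plk1, Ccn2, Selp, Cd34, Spns2, Icam1, Ptgs1, Ltc4s, Timp3, Acvrl1, Bmp4, Tgfb3, Fdft1, Clk3, Srpk2, Usp18, Herc6, Col3a1 and Pi16. Counts of the classes stayed within 1.5 times of those given when any 1 library was left out.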

How the data were processed

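The authors aligned reads with STAR to GRCm38, counted them per gene with featureCounts and deposited a table of estimated counts for 12 endothelial libraries, 3 in each of 4 groups. The values are whole numbers that rise in steps of 3.6 to 3.74, so they are described as estimated rather than raw counts. They entered the main fit unchanged. In an alternative fit, each library was divided by its step. HECs alone then held 168 higher and 86 lower genes, against 207 and 103 in the main fit. The opposite classes held 568 and 630 genes, against 644 and 651. The SE of the Alox12 interaction was 0.33, against 0.28. Of the columns with values per sample, 0 lacked a sample. The EO771 tumour cell libraries were not used here.

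All 12 libraries entered a single DESeq2 1.42.0 fit (R 4.3.3) of genes with a mean of at least 10, with Wald tests (two-sided) of each contrast. The p-values were adjusted by the Benjamini-Hochberg method across the whole table. Genes with an adjusted p under 0.05 and a log2 fold change over 1 were called. Values are counts scaled by DESeq2 size factors, and errors are standard errors or SD (n = 3). Totals were 56.4 to 79.4 M, or 15.2 to 21.5 M when divided by the step, and the smaller numbers are the closer guide to precision. Mean values at or under 3 were treated as a floor, which lies below 1 step. The named genes were Alox12, Cyp26b1 and Nrp2, then the 4 or 5 with the largest Wald statistics in each class (mean at least 100, no shared exon, no predicted gene), the 4 largest in each gene list, and members needed to describe a list. A few genes that this rule named are not reported here. Members and lists were chosen with earlier results of these data known. On simulated counts for 18511 genes, the interaction test called 92% of genes changed by a log2 of 2 and 78% of those changed by 1.5, and 48 unchanged genes. Alternatives were edgeR 4.0.16 and other scalings, filters, thresholds, values divided by their step, a separate fit for each cell type, a replicate block and each library left out.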

Additional observations from a re-analysis of the deposited data

Results flagged for a closer look

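The test of the difference between the tumour responses of HECs and BECs called 2069 genes with a positive and 2240 with a negative interaction. Among the named genes of the classes, the log2 interaction was 2.72 for Alox12, 3.01 for Cyp26b1 and -1.24 for Nrp2. Of the genes that rose in HECs and fell in BECs, Fbln2 had 6.15, Acsbg1 4.31, Rflnb 4.49, Adam12 4.26 and Plpp3 2.56. In the reverse class, Rsad2 had -4.26, Plxnb2 -1.75, Sft2d2 -1.55, Xdh -2.94 and Kif2c -1.75. For genes of HECs alone, the interaction was 4.80 for Cmklr1, 1.23 for Trub1, 1.06 for Inka2, 1.72 for Dock8, -1.11 for Ncaph, -2.12 for Mpp2, -1.24 for Sgsm2 and -1.19 for Specc1. For genes of BECs alone, it was -6.99 for Lncenc1, -3.40 for Sdcbp2, -1.81 for Slc27a1, -1.83 for Ctps, 2.54 for Nptx1, 1.32 for Podxl, 3.06 for Cdc42ep2 and 3.66 for Hspa12b. Of the alike genes named, Gsta1 had -1.67 and Oas3 -1.27. With 3 libraries a group, no test for a library that stands apart was made.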

How the results depend on the processing

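No interaction of Alox12, Cyp26b1, Nrp2 or the leading genes of the classes changed sign under the alternatives run. Genes named only for their list were not followed across the alternatives. The balance within pairs of classes did change. The alike classes, 169 higher and 200 lower, held 221 and 217 with TMM scaling, 217 and 175 with library-total scaling, 155 and 144 with a separate fit for each cell type, and 197 and 181 without BEC normal replicate 1. The opposite classes, 644 and 651, held 702 and 563 with library-total scaling. The median interaction of arachidonic acid enzymes, -0.11, was 0.09 with a mean of at least 50 and 0.12 without BEC tumour replicate 2. The cause was not tested. With edgeR in place of DESeq2, 108 genes were alike higher, and with a mean of at least 50, 120 were higher in HECs alone. Tested against a log2 fold change of 1, the interaction was called positive for 814 and negative for 962 genes, and Nrp2 (-1.24), Trub1, Inka2, Ncaph, Sgsm2, Specc1 and Oas3 lost their calls. Inka2, at 1.00, also lost its call with TMM scaling and with edgeR. The opposite classes then held 381 and 375 genes, HECs alone 12 and 11, BECs alone 478 and 354, and the alike classes 4 and 34, higher in HECs or higher first. With adjusted p alone these numbers were 4246 and 4397 for the interaction, 1054 and 1136 opposite, 701 and 709 in HECs alone, 1987 and 1935 in BECs alone, and 878 and 1232 alike. Both settings change the threshold itself.

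Leaving out each library in turn gave 1929 to 2089 positive and 2082 to 2367 negative interactions, 582 to 627 and 583 to 693 opposite genes, 173 to 236 and 98 to 125 in HECs alone, 998 to 1185 and 827 to 919 in BECs alone, and 123 to 197 and 178 to 220 alike. The interaction ran from 2.32 to 3.02 for Alox12, 2.90 to 3.09 for Cyp26b1 and -1.30 to -1.20 for Nrp2. With the replicate number as a block, 2012 and 2212 interactions were called, and the block changed none of the class counts by over 1.5 times. Same-numbered libraries did not deviate together, since 1 of 18 pairs had a correlation over 0.1 (range -0.071 to 0.237), so the numbers were not taken as pairs. List medians near 0 in HECs changed sign with scaling. Depth limits genes near the floor of 3.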

Other observations

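Mitochondrially encoded mRNAs, 12 of which were tested, leaned higher in HEC tumour and lower in BEC tumour. Of these, 4 were called higher and 0 lower in HECs (4.60% and 3.23% of all genes), with a median of 0.68 on the log2 scale. In BECs, 0 were called higher and 3 lower (12.5% and 10.9% of all genes), with a median of -0.26. The interaction was called positive for 7 and negative for 0 (11.2% and 12.1% of all genes), with a median of 1.46. Nuclear-encoded subunits of respiratory complexes I to IV had medians of -0.22 in HECs and -0.32 in BECs, and 27 of 59 fell in HECs and 35 in BECs by adjusted p (18.6% and 27.3% of all genes).

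Of 22 p53 targets, 6 were called higher and 1 lower in BECs (12.5% and 10.9% of all genes), and 0 in HECs by DESeq2, where 3 rose and 5 fell by adjusted p, near the 17.0% and 18.6% of all genes. Of 17 circadian clock genes, 1 was called lower in HECs (3.23% of all genes), and 3 were called higher and 5 lower in BECs (12.5% and 10.9%). By adjusted p, 0 clock genes rose and 8 fell in HECs (17.0% and 18.6% of all genes), with a median of -0.31. In BECs 5 rose and 8 fell (26.6% and 27.3%), with a median of -0.22. Of 36 glycolysis and hypoxia genes, 9 were called lower and 3 higher in BECs (10.9% and 12.5% of all genes). In HECs, 1 was called lower and 0 higher (3.23% and 4.60%). By adjusted p, 2 of these genes rose and 13 fell in HECs (17.0% and 18.6% of all genes), and 6 rose and 19 fell in BECs (26.6% and 27.3%).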
